A study of Homo sapiens with 4 samples.

Results

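The genes described here are 9 genes of the hyaluronan matrix, taken by symbol: TNFAIP6, PTX3, VCAN, CD44, HMMR, HYAL2, HAS1, HAS2 and HAS3. They were chosen with earlier results of these data known. TNFAIP6 is on the list of NTHi-induced genes that the study drew from these same arrays. Its rank and the counts that include it are therefore not independent evidence. All probe sets annotated to 1 of the 9 genes alone were taken, which gave 28 of 54675 probe sets on the array and 8 of 19775 named genes. HAS1 had no probe set under its name in the annotation used and is not analysed here. Signals were compared between THP‐1 cells that express Siglec‐14 (Siglec‐14/THP‐1, Siglec‐14 cells for short) and THP‐1 cells that express Siglec‐5 (Siglec‐5/THP‐1, Siglec‐5 cells for short), each incubated for 6 h in serum-free medium without or with heat-killed nontypeable Haemophilus influenzae (NTHi) strain 2019, 100 bacteria per cell. THP‐1 is a human monocytic leukemia line, and Siglec‐14 and Siglec‐5 are sialic acid receptors of myeloid cells with activating and inhibitory signaling, respectively. The study uses the sublines as models of monocytes with and without the SIGLEC14 gene, and the sources used here do not say whether a subline is 1 clone. There is 1 array for each of the 4 conditions, designated Siglec‐14,NTHi[−] and Siglec‐14,NTHi[+], followed by Siglec‐5,NTHi[−] and Siglec‐5,NTHi[+].

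Hyaluronan is a long unbranched sugar polymer that is made at the plasma membrane by hyaluronan synthases and extruded into the space around the cell. In inflamed tissue it is cross-linked into cable-like matrices: TSG‐6, the product of TNFAIP6, transfers heavy chains of inter-alpha-inhibitor onto hyaluronan, pentraxin 3 holds such chains together, and versican binds along the polymer. Leukocytes hold on to this matrix through CD44, and hyaluronidases cut it into fragments.

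Of the 8 genes with a probe set, 7 reached the median of all signals, 16.02, on at least 1 array, and 6 reached it on all 4. This median was used as a floor: a signal under it was raised to it in a ratio, and the fold is then a lower bound. Where a gene had more than 1 probe set, the brightest by mean signal stands for it. With 1 array per condition no replicate error can be given, and no test applies to the ratio of a pair of arrays, so a ratio of at least 3-fold, the fold that the study's screen asked for, was counted as called. All 4 arrays together allowed 1 fit with limma, with NTHi and cell line as additive terms, which tests a response shared by both lines and not whether the lines respond differently.

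Sums of all signals ran from 12735500 to 14047100 per array. The median log2 ratio of all genes was 0.08 for NTHi in Siglec‐14 cells, -0.11 for NTHi in Siglec‐5 cells, -0.12 between the lines without NTHi and 0.06 with it. Of 12 myeloid markers, 10 had a probe set and 8 reached the floor. Signals ran from 3036 to 3430 for LYZ, from 1707 to 2365 for PTPRC and from 21.9 to 53.0 for CSF1R, while CD14 and FCGR1A were below the floor on all 4 arrays. MPO was lower in Siglec‐14 cells (1152 and 1365 against 2408 and 2186, limma adjusted p = 1.11e-06) and ITGAM was higher (290.1 and 353 against 198 and 167, limma adjusted p = 3.54e-05). The SIGLEC5 probe set had signals of 21.3, 19.5, 4.13 and 21.6 in the order of conditions above. It did not separate the lines as labeled, and no probe set was listed under SIGLEC14, so the labels could not be checked on these genes.

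The results turned on 3 of the genes. TNFAIP6 was induced by NTHi in both lines, and PTX3 rose by a smaller fold and had the higher signal in Siglec‐5 cells. On its brightest probe set, VCAN was more than 5-fold higher in Siglec‐14 cells whether or not NTHi was present. The size of that difference varied between probe sets. CD44 and HMMR were far above the floor on all arrays, and the synthases were nearer to it or below it.

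**Figure D1:**
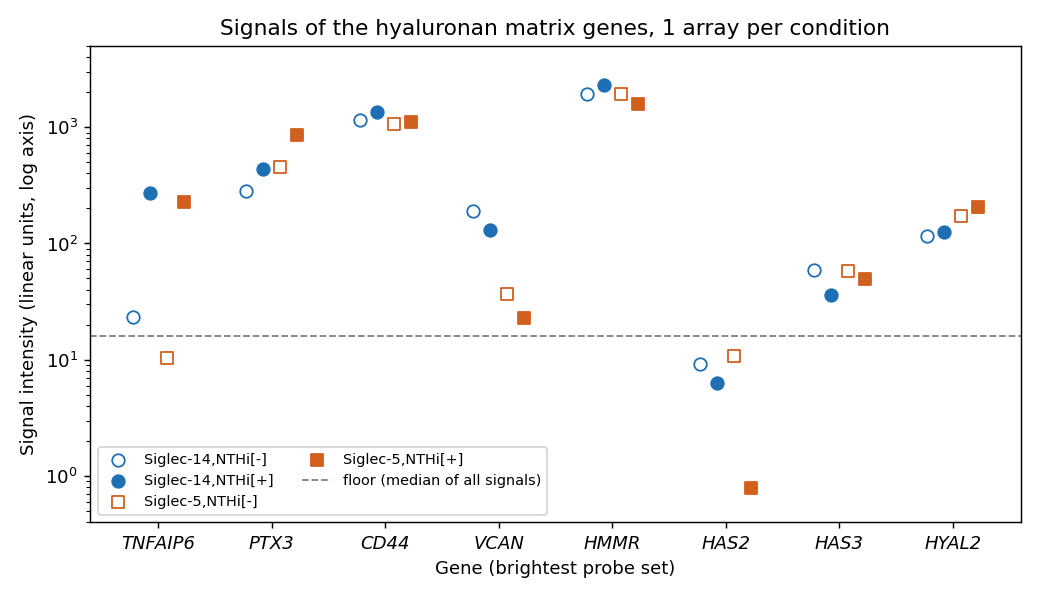
Signal intensity on a log axis for the brightest probe set of each of the 8 genes, with 1 point per array: circles are Siglec‐14 cells, squares are Siglec‐5 cells, filled symbols are with NTHi, and the dashed line is the floor of 16.02. TNFAIP6 rises from near the floor to 271 and 228, VCAN separates by line, and HAS2 lies below the floor on all 4 arrays.

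Because TNFAIP6 and PTX3 were the 2 genes that rose with NTHi in the shared fit, the 250 bases upstream of their annotated starts are shown. They were taken from RefSeq promoter windows (GRCh38.p14), which hold 8 of the 9 genes, without HAS2. Capitals mark the letters TGANTCA, a form of the site of AP‐1 (a transcription factor of stimulated cells), and GGG and CC separated by any 5 bases, a loose form of the κB site that NF-κB binds. Both strands were searched.
TNFAIP6, chr2:151357342-151357591, plus strand: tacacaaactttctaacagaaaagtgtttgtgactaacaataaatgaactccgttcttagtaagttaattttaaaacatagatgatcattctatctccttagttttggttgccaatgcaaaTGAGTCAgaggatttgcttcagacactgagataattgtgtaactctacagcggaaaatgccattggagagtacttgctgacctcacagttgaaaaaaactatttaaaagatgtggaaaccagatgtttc
PTX3, chr3:157436600-157436849, plus strand: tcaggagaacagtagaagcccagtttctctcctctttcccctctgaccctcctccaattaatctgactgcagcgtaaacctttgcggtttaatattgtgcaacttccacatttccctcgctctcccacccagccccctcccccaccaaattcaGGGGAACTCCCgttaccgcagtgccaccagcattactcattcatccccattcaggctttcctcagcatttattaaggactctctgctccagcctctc
The TNFAIP6 window holds 1 AP‐1 form, with its first base at -129 from the start, and no loose κB form. The PTX3 window holds the loose κB form at -97 and, overlapping it, at -96, and no AP‐1 form. Of all 35116 windows of this length, 6.57% hold the AP‐1 form and 54.4% the loose κB form. None of the other 6 windows searched holds the AP‐1 form. The loose κB form is also in the windows of CD44, VCAN, HAS1 and HAS3, and not in those of HMMR and HYAL2. These are matches of letters and not measurements of binding.

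TNFAIP6 encodes TSG‐6, a secreted hyaluronan-binding protein that is made on inflammatory stimulation. Its signal was 23.1 without and 271 with NTHi in Siglec‐14 cells, and 10.3 without and 228 with NTHi in Siglec‐5 cells. Both stimulated arrays were high and both nonstimulated arrays were near or below the floor. NTHi raised the signal 11.7-fold in Siglec‐14 cells and at least 14.2-fold in Siglec‐5 cells. Among all genes, this was rank 1 of 13210 in Siglec‐14 cells. In Siglec‐5 cells the bound itself ranked 2 of 13014, with signals under the floor raised to it for every gene, so the place of the ratio there is not exact. The other probe set of the gene went from 28.9 to 220.2 in Siglec‐14 cells, 7.62-fold, and from 7.15 to 191 in Siglec‐5 cells, at least 11.9-fold. Since these are RNA pools of whole cultures, fewer cells that express a gene and less of its RNA per cell cannot be told apart.

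At 3-fold, TNFAIP6 was the 1 gene called of 7 measured for NTHi in Siglec‐14 cells, against 0.189% of all genes higher, and 0 were lower, against 0.0681%. In Siglec‐5 cells it was again the 1 gene called higher of 7, against 0.261% of all genes, and 0 were lower, against 0.0384%. Over the 7 genes, the median log2 NTHi ratio was 0.25 in Siglec‐14 cells and 0.05 in Siglec‐5 cells, so that as a group they lay near the medians of all genes. Of 12289 genes measured in both pairs, 12 were higher by at least 3-fold after NTHi in both lines, and TNFAIP6 is 1 of these.

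**Figure D2:**
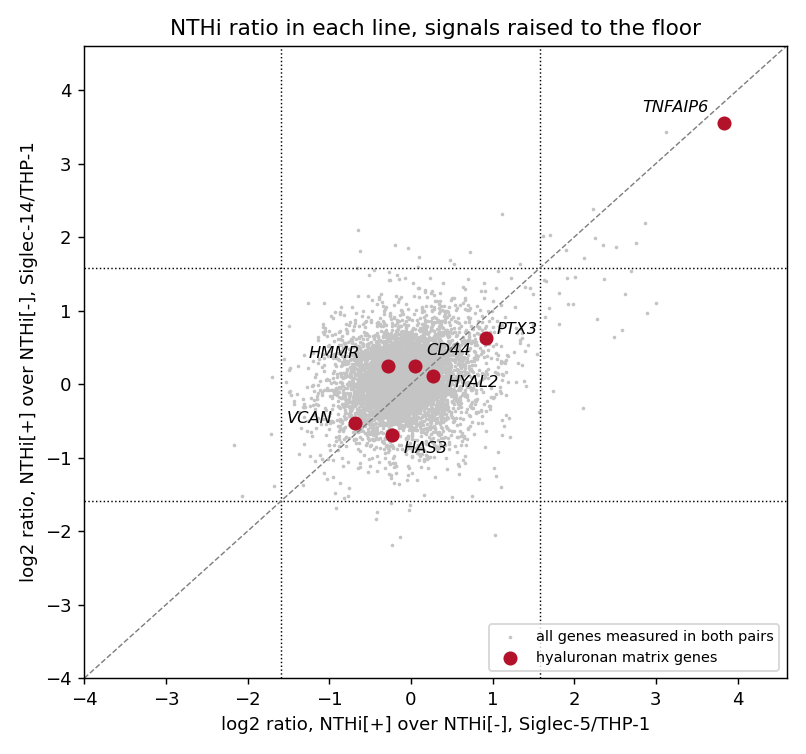
Each grey point is 1 of 12289 genes, with its log2 ratio of NTHi[+] to NTHi[−] in Siglec‐5 cells on the x axis and in Siglec‐14 cells on the y axis, and the red points are 7 hyaluronan matrix genes. Dotted lines mark 3-fold and the dashed line equal ratios, and TNFAIP6 lies far up the diagonal at 3.83 and 3.55, with PTX3 next at 0.92 and 0.63.

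For the comparison of the lines, the TNFAIP6 signal with NTHi was 1.19-fold higher in Siglec‐14 cells and without NTHi at least 1.44-fold higher. On the log2 scale these are 0.25 and 0.53, and the SD of the same ratios among 1000 genes of like signal was 0.54 and 0.53. The other probe set gave 1.15-fold with NTHi and at least 1.8-fold without it, from 28.9 against 7.15. The study's list marks TNFAIP6 as at least 3-fold higher in Siglec‐14 cells without NTHi. A lower bound does not exclude such a fold, since the Siglec‐5 signal is under the floor. On the brightest probe set, the rise in Siglec‐14 cells minus that in Siglec‐5 cells was -0.28 on the log2 scale with signals raised to the floor. It was -0.92 with signals as they stand and 0.25 with the floor at the 75th percentile. That last floor sets both nonstimulated signals equal, so its value is only the ratio of the stimulated lines and cannot bear on direction. On the other probe set the difference was -0.64 with signals raised to the floor. The size of the difference thus depends on how the signals of 23.1 and 10.3 without NTHi are treated. It has no test, and with 1 array per condition no direction is given.

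PTX3 encodes pentraxin 3, a secreted pattern recognition protein that binds microbes and takes part in the assembly of hyaluronan matrix. Its signal was 283 without and 438 with NTHi in Siglec‐14 cells, and 452 without and 853 with NTHi in Siglec‐5 cells. Nonstimulated Siglec‐5 cells had about the signal of stimulated Siglec‐14 cells. NTHi raised it 1.55-fold in Siglec‐14 cells and 1.89-fold in Siglec‐5 cells, which was rank 565 of 13210 and rank 144 of 13014 among all genes. PTX3 was 1.60-fold higher in Siglec‐5 cells without NTHi and 1.95-fold higher with it, opposite in direction to VCAN. As log2 ratios of Siglec‐14 cells to Siglec‐5 cells these are -0.68 and -0.96, against an SD of 0.40 and 0.42 among 1000 genes of like signal. PTX3 has 1 probe set, so no second probe set bears on these values.

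In limma's shared fit, TNFAIP6 and PTX3 rose with NTHi, 2 of 7 genes against 0.99% of all genes, and 0 fell, against 0.294%. The NTHi term of TNFAIP6 was 4.01 in log2 units (standard error 0.24, adjusted p = 1.42e-59), and that of PTX3 was 0.78 (standard error 0.15, adjusted p = 0.000142). The fit used signals not raised to the floor. The TNFAIP6 term thus rests in part on the Siglec‐5,NTHi[−] signal of 10.3, below the floor, and is larger than both ratios with the floor, 3.55 and 3.83. These standard errors come from the trend of variance with intensity over all probe sets and not from the gene's own values, since the prior degrees of freedom of this fit were infinite. Each probe set has 1 residual degree of freedom. Without the trend, limma's adjusted p was 0.48 for TNFAIP6 and 0.767 for PTX3, and 0 of 31981 probe sets passed, with 1941 at an unadjusted p under 0.05.

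The genes nearest to TNFAIP6 in pattern over the 4 arrays were MIR146A, NFKBIZ, TNFAIP3, VCAM1 and NFKBIA, in this order, with distances of 0.53, 1.58, 1.68, 2.05 and 2.11. The distance is that between log2 signals centred on the mean of each gene, with signals under the floor raised to it, over 8299 genes that reached the 75th percentile of all signals on at least 1 array. MIR146A, the gene of a microRNA that restrains NF-κB signaling, had signals of 20.6 and 222 in Siglec‐14 cells and 5.74 and 139 in Siglec‐5 cells. Without NTHi it was a little above the floor in Siglec‐14 cells and below it in Siglec‐5 cells, as TNFAIP6 was, while NFKBIZ, a nuclear IκB protein, started at 149.8 and 199 and reached 784 and 933.

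VCAN encodes versican, a large chondroitin sulfate proteoglycan that binds hyaluronan and is made by monocytes as well as by stromal cells. Its signal was 190.0 without and 131 with NTHi in Siglec‐14 cells, and 37.0 without and 23.0 with NTHi in Siglec‐5 cells. Both Siglec‐14 cells arrays were above both Siglec‐5 cells arrays. The signal was 5.13-fold higher in Siglec‐14 cells without NTHi, rank 63 of 13284 genes, and 5.69-fold higher with NTHi, rank 60 of 13099.

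The size of this difference varied between probe sets. On the next brightest probe set of VCAN the signals were 131 and 132 in Siglec‐14 cells against 22.2 and 29.6 in Siglec‐5 cells, 5.91-fold without and 4.44-fold with NTHi. On the 3 dimmer probe sets most folds are lower bounds, since the Siglec‐5 signals lie under the floor, from at least 1.74-fold to at least 2.92-fold. The exception was 1.16-fold with NTHi, on a probe set with 28.5 and 24.6, both above the floor. Over the probe sets that could be compared, the ratio was above 1 on 4 of 4 without NTHi and on 5 of 5 with NTHi. These counts include probe sets whose Siglec‐5 signal was raised to the floor, 15.9 and 8.79 without NTHi and 4.08 and 13.0 with it. There the ratio could not fall below 1, so only the probe sets with both signals above the floor bear on direction. For NTHi itself the probe sets of VCAN disagreed in direction, with 2 of 5 higher in Siglec‐14 cells and 2 of 3 higher in Siglec‐5 cells, so no direction is given for VCAN with NTHi.

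VCAN was the 1 gene of 7 called at 3-fold in the comparison of the lines without NTHi, against 1.21% of all genes higher, and 0 were lower in Siglec‐14 cells, against 0.113%. With NTHi it was again the 1 gene of 7 higher, against 1.63% of all genes, with 0 lower, against 0.0382%. The line term of limma's shared fit was 2.43 in log2 units for VCAN (standard error 0.23, adjusted p = 5.3e-24). By the same term, 2 of 7 genes were higher in Siglec‐14 cells, TNFAIP6 and VCAN, against 6.24% of all genes, and 2 were lower, PTX3 and HYAL2, against 4.95%. For TNFAIP6 the adjusted p was 0.0363 and rests on a signal below the floor, and with genes filtered at the 75th percentile it was 0.138. On the other TNFAIP6 probe set, which also has a signal below the floor, limma gave 1.11 log2 units for the line (standard error 0.25, adjusted p = 0.000343). Without the intensity trend, limma's adjusted p was 0.188 for VCAN, and 0 of 31981 probe sets passed, with 3740 at an unadjusted p under 0.05.

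Fibroblasts are a further source of versican, so their markers were read beside it. Of 8 fibroblast markers, 6 were below the floor on all 4 arrays, among them COL3A1 and PDGFRB. COL1A1, a collagen chain, had 266, 257, 141 and 132 in the order of conditions above, 1.89-fold and 1.95-fold higher in Siglec‐14 cells. DCN, a small proteoglycan and the other marker that reached the floor, had 15.5, 13.5, 21.3 and 16.6, with log2 ratios between the lines of -0.41 without and -0.05 with NTHi. The summed signal of the 8 markers, most of which is COL1A1, was 319 and 319.9 in Siglec‐14 cells against 182 and 179 in Siglec‐5 cells, and its part in the VCAN difference was not tested.

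CD44 encodes the main cell surface receptor for hyaluronan, an adhesion molecule of leukocytes. On the brightest probe set CD44 measured 1142 and 1354 in Siglec‐14 cells and 1075 and 1116 in Siglec‐5 cells, in the order without and with NTHi. All 4 arrays were thus bright, with ratios of Siglec‐14 cells to Siglec‐5 cells of 1.06 without and 1.21 with NTHi. The remaining probe sets differed more between the lines. Of 13 probe sets listed for CD44, 9 reached the floor, and on all 9 the signal was higher in Siglec‐14 cells in both conditions, with a median of 1.80-fold without NTHi and 1.79-fold with it. On the dimmest of the 9 the Siglec‐5 signal without NTHi, 10.3, was under the floor, so its ratio there could not fall below 1.

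In limma's shared fit, 7 of these 9 probe sets passed for the line, all higher in Siglec‐14 cells, where 2718 of all 31981 passed in either direction. Without the intensity trend 0 of the 31981 passed. The brightest probe set did not pass, with a term of 0.18 in log2 units (standard error 0.15, adjusted p = 0.595). A probe set with signals of 487 and 561 against 271 and 279.7 had a term of 0.93 (standard error 0.16, adjusted p = 2.44e-07). The widest ratio without NTHi was 3.17-fold, on a dim probe set with 63.9 in Siglec‐14,NTHi[−] and 20.2 in Siglec‐5,NTHi[−]. CD44 is spliced in many forms, and which transcript each probe set reads is not given in the annotation used. For NTHi, 0 of the 9 probe sets passed limma's fit, where 294 of all 31981 passed. The NTHi ratios of CD44 ran from 0.786 to 1.31 in Siglec‐14 cells and from 0.903 to 1.36 in Siglec‐5 cells.

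**Figure D3:**
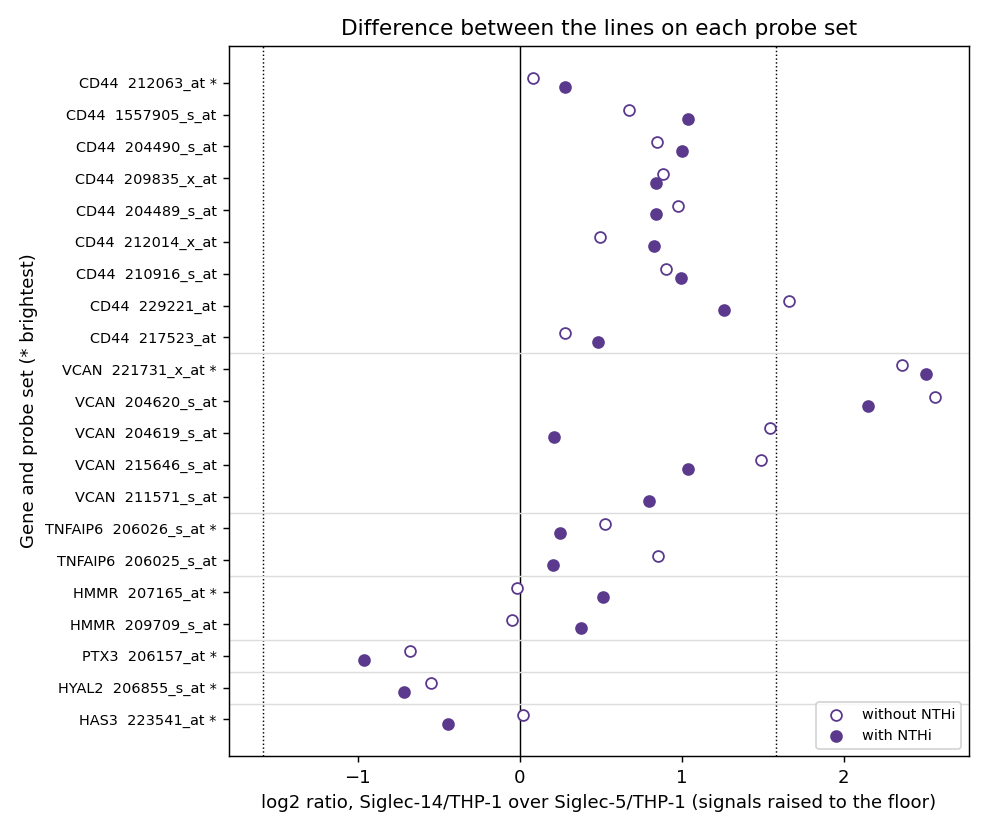
Each row is 1 of 21 probe sets with a signal not under the floor on 1 array or more, and the x axis is the log2 ratio of Siglec‐14 cells to Siglec‐5 cells, with open circles without NTHi, filled circles with NTHi, dotted lines at 3-fold and a star at the brightest probe set of a gene. All points of CD44 and VCAN lie right of 0, those of PTX3 and HYAL2 lie left of it, and the brightest CD44 probe set lies nearest to 0 among the CD44 probe sets without NTHi. Where only the Siglec‐5 signal is under the floor, a point cannot lie left of 0.

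HMMR encodes RHAMM, a hyaluronan-binding protein that also sits on the mitotic spindle and is expressed in dividing cells. Its signals were 1920.4 and 2286 in Siglec‐14 cells and 1940.1 and 1597 in Siglec‐5 cells. Without NTHi the lines had nearly the same signal. With NTHi the log2 ratio was 0.25 in Siglec‐14 cells and -0.28 in Siglec‐5 cells, and a second probe set, with 721, 857, 744 and 658, gave 0.25 and -0.18. Neither term of limma's shared fit passed for HMMR (adjusted p = 0.412 for the line).

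A list of 16 mitotic genes was set beside HMMR, among them CDK1, the kinase that drives entry into mitosis, and TPX2, a spindle assembly factor. The median log2 NTHi ratio of the 16 was 0.13 in Siglec‐14 cells, with a range from -0.25 to 0.31, and -0.15 in Siglec‐5 cells, with a range from -0.43 to 0.02. The values of HMMR lay within these ranges. CDK1 had 4033 and 4490 in Siglec‐14 cells and 4658 and 4305 in Siglec‐5 cells. None of the 16 passed limma's fit in either term.

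HYAL2 encodes a hyaluronidase anchored to the cell membrane. Its signal was 117 without and 125 with NTHi in Siglec‐14 cells, and 171 without and 206 with NTHi in Siglec‐5 cells. Both Siglec‐5 cells arrays were above both Siglec‐14 cells arrays, 1.46-fold without NTHi and 1.64-fold with it. As log2 ratios of Siglec‐14 cells to Siglec‐5 cells these are -0.549 and -0.714, against an SD of 0.525 and 0.517 among 1000 genes of like signal. The line term of limma's shared fit was -0.63 in log2 units (standard error 0.18, adjusted p = 0.00832). HYAL2 had NTHi ratios of 1.08 in Siglec‐14 cells and 1.21 in Siglec‐5 cells, and the first of these was -0.03 on the log2 scale when arrays were scaled to the same sum.

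The hyaluronan synthases make the polymer itself. HAS3 had 58.6 without and 36.3 with NTHi in Siglec‐14 cells, and 57.8 without and 49.4 with NTHi in Siglec‐5 cells. Both NTHi[+] arrays had the lower signal of their pair, with log2 ratios of -0.69 and -0.23, against an SD of 0.45 and 0.43 among 1000 genes of like signal. The other HAS3 probe set was below the floor throughout, with a maximum of 12.6. HAS2 was below the floor on all arrays on both of its probe sets, with 9.27, 6.25, 10.7 and 0.795 on the brighter one, so no fold is given. Whether the cells make HAS2 RNA at a level under the floor cannot be read from these signals.

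The wider hyaluronan pathway was read from lists. Of 84 genes in 9 lists, which include the mitotic genes above, 59 reached the floor, and 0 of these passed for NTHi in limma's shared fit (2 at an unadjusted p under 0.05), where 0.99% of all genes rose and 0.294% fell. Between the lines, 4 were higher and 1 was lower in Siglec‐14 cells (15 at an unadjusted p under 0.05), against 6.24% and 4.95% of all genes. At 3-fold, 1 of the genes measured, HAPLN4, was higher in Siglec‐14 cells, both without and with NTHi, against 1.21% and 1.63% of all genes. These counts do not set the lists apart from the rest of the array.

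Among hyaluronan-linking proteins and proteoglycans, 8 of 13 genes reached the floor. HAPLN4, which links hyaluronan to proteoglycans, had 93.3 and 101 in Siglec‐14 cells and 28.4 and 28.9 in Siglec‐5 cells, 3.28-fold and 3.49-fold, with a line term of 1.76 (standard error 0.26, adjusted p = 6.08e-10). Its direction was that of VCAN. AMBP, the light chain of inter-alpha-inhibitor, and ITIH1 and ITIH2, its heavy chains, had signals between 1.02 and 24.0, around or under the floor.

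Among genes of hyaluronan breakdown, 4 of 7 with a probe set reached the floor, and 2 passed for the line. CEMIP2, a cell surface protein that cleaves hyaluronan, had 43.1 and 48.3 in Siglec‐14 cells against 14.1 and 27.3, with a term of 1.22 (adjusted p = 0.0113) that rests on a signal below the floor. HYAL3, of the hyaluronidase family, was lower in Siglec‐14 cells as HYAL2 was, with 34.1 and 23.1 against 67.8 and 64.1, and a term of -1.23 (adjusted p = 0.000473). The lysosomal enzymes GUSB and HEXA were bright on all arrays and did not pass.

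All 5 measured genes of hyaluronan precursor synthesis were above the floor on all 4 arrays, and 1 passed, UGDH, which makes UDP-glucuronic acid, with a line term of 0.47 (adjusted p = 0.0314). TLR2, a bacterial lipoprotein receptor that has also been linked to hyaluronan fragments, had 133 and 209.9 in Siglec‐14 cells and 146 and 215 in Siglec‐5 cells, and its NTHi term missed the threshold (0.61, adjusted p = 0.055). Of 13 measured genes for chondroitin sulfate chains, the sugar chains that versican carries, CHPF2 alone passed for the line (0.48, adjusted p = 0.0333). MSN, which links CD44 to actin, ran from 4295 to 4944. The versican-cleaving ADAMTS proteases had no signal above 40.6. CRP, the pentraxin of the acute phase, was below the floor on all arrays, unlike PTX3.

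**Figure D4:**
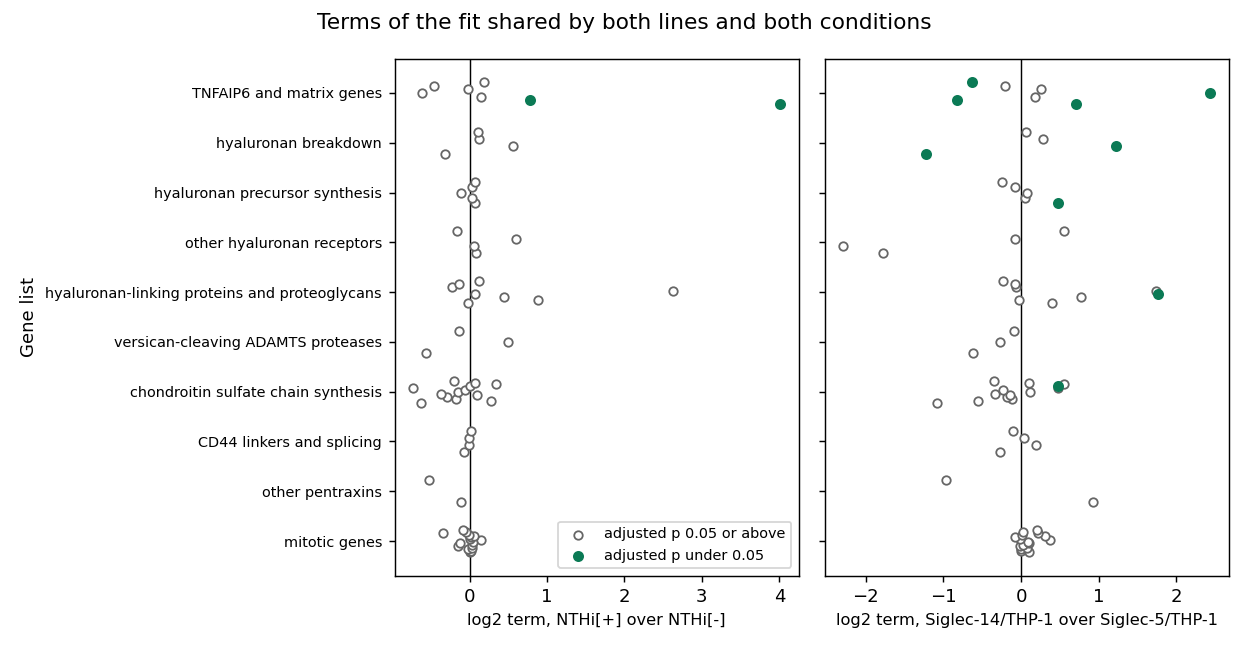
Log2 terms of limma's shared fit, NTHi on the left and cell line on the right, with 1 point per gene that reached the floor, for the 7 matrix genes and 9 pathway lists, green where the adjusted p was under 0.05. TNFAIP6 at 4.01 and PTX3 at 0.78 are the green points on the left, and VCAN at 2.43 and HAPLN4 at 1.76 are the highest green points on the right.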

How the data were processed

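RNA of 4 cell samples (250 ng of total RNA each) was measured on Affymetrix HG-U133 Plus 2.0 arrays. Scans were quantified by the authors in GCOS, the Affymetrix operating software (version not given in the sources used here), and, by their methods, signals were standardized on the cumulative intensity of all probes. The deposited values are linear signal intensities of probe sets, whose sums differ between arrays, so whether they carry that standardization is unknown. They were used as deposited. Such signals are not comparable between probe sets as transcript levels.

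Probe sets were named by the platform annotation (41097 for 1 gene, 1801 for several, 11777 for none). Ratios used a floor at the median of all signals and a 3-fold threshold. limma 3.58.1 (R 4.3.3; lmFit, eBayes with an intensity trend) was fitted on log2 signals of 31981 probe sets that reached the floor, without 62 controls, with Benjamini-Hochberg adjustment over all of them. Its prior degrees of freedom were infinite. The fit was also run on simulated data, in which noise followed signal intensity and no line effect was put in. That run checks the computation and cannot check whether the intensity trend holds for these arrays. Gene counts use the brightest probe set.

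Named genes were the 9 matrix genes, members of the pathway lists that passed or were past 3-fold (with some values of other members), the 5 genes nearest to TNFAIP6, and markers as checks. CDK1, TPX2, KIF20A, TLR2, MSN, GUSB, HEXA, CRP, AMBP, ITIH1, ITIH2, the ADAMTS proteases, CSF1R, FCGR1A, ITGAM, COL1A1, COL3A1, PDGFRB and DCN were named after their values were seen. The genes and lists were chosen with earlier results of these data known. Python 3.11.15, numpy 2.4.6, pandas 2.3.3 and matplotlib 3.10.9 were used for the rest. The number of arrays limits the precision. Alternatives were other scalings, floors, thresholds and probe set choices, a pseudocount, and limma without the trend, without 1 factor or with other filters.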

Additional observations from a re-analysis of the deposited data

Results flagged for a closer look

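HMMR had a log2 NTHi ratio of 0.25 in Siglec‐14 cells and -0.28 in Siglec‐5 cells, so that the single pair of each line ran in opposite directions, with a difference of 0.53 that was not tested. Of 12289 genes measured in both pairs, 44.1% were likewise higher with NTHi in Siglec‐14 cells and lower in Siglec‐5 cells, as were 13 of the 16 mitotic genes. The difference was larger than that of HMMR in 11.7% of all genes and in 0 of the 16. Among the 16, KIF20A had about the same difference as HMMR, with ratios of 0.307 in Siglec‐14 cells and -0.225 in Siglec‐5 cells. The median difference was 0.19 over all genes and 0.27 over the mitotic genes. Over the settings tried, the difference of HMMR ran from 0.32 to 0.53.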

How the results depend on the processing

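Under array scaling to the same median or sum, quantile normalization, the floor at the 25th percentile (4.09) and a pseudocount of 16, the 3-fold counts of the 4 comparisons stayed at 1 higher and 0 lower. A floor at the 75th percentile (105) left 0 genes called in each of the 4 comparisons, because the lower signals of TNFAIP6 and VCAN are then raised to that floor. TNFAIP6 is then at least 2.58-fold and 2.17-fold higher with NTHi. VCAN is then at least 1.8-fold higher in Siglec‐14 cells without NTHi and at least 1.25-fold higher with it. With no floor, 1 gene (HAS2) was lower with NTHi in Siglec‐5 cells and 2 (VCAN, HAS2) were higher in stimulated Siglec‐14 cells, the HAS2 calls resting on signals under the floor. With the mean over probe sets, 0 genes were called between the stimulated lines, since VCAN then had a log2 ratio of 1.34, and with the probe set of largest ratio 2 (CD44, VCAN) were called between the nonstimulated lines. In limma, 0 genes passed for NTHi and 0 for the line without the intensity trend, and 0 for NTHi with the line left out (TNFAIP6 adjusted p = 0.0505). The line call of TNFAIP6 was lost in 5 of 6 limma alternatives, all but median scaling (adjusted p from 0.0252 to 0.686), and quantile normalization brought CD44 (0.00512) and HMMR (0.00116) under the threshold. Scaling moved the median of all genes by -0.13 to 0.14 on the log2 scale, so the direction of HMMR between the nonstimulated lines, -0.05 to 0.17, is not settled. No paired analysis was possible because each group has 1 array and so no replicate numbers to pair by; the shared limma fit compares NTHi within each line through its line term.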

Other observations

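A probe set listed for both UTP4 and HAS3, and therefore left out of the values of HAS3, had signals of 15.2 without and 2.31 with NTHi in Siglec‐14 cells, and of 1.16 without and 4.0 with NTHi in Siglec‐5 cells, below the floor on all 4 arrays.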
